A study of Mus musculus with 9 samples.

Results

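The 34 genes described here encode the T cell receptor complex and the proteins that relay its first signals, and they were measured by RNA-seq in lymph node CD4+ T cells with and without a conditional deletion of Kdm6a. The members were listed by symbol, and each of the 34 symbols matched 1 of the 39017 Ensembl gene IDs in the deposited count table. All 34 passed the filter on low counts, with between 72 and 45570 counts per gene and sample. The cKO group held 4 samples (cKO 2, 6, 7 and 8) with genotype floxed/y Kdm6a and CD4-Cre (+/-). The WT group held 5 samples (WT 1, 3, 4, 5 and 9) with the same floxed/y Kdm6a allele and CD4-Cre (-/-). Both groups came from male C57BL/6 mice. Ages are not stated, and the labels do not say whether each sample is a separate mouse, so p-values measure only how these samples spread, and some of that spread may be technical. Cre, driven by the Cd4 promoter, came with the deletion in all cKO samples and was absent from WT, so effects of Cre and of the Kdm6a deletion cannot be told apart. The labels mention no stimulation of the cells, although the title of the deposited table contains the word "stim". In RNA from bulk samples, fewer cells of a type and less RNA per cell cannot be told apart.

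The T cell receptor is a clonotypic alpha-beta dimer held at the surface by the CD3 chains and the zeta chain, whose cytoplasmic tyrosines are phosphorylated by Lck when the receptor and the coreceptor CD4 meet peptide on MHC class II. The kinase Zap70 docks on these tyrosines and phosphorylates the scaffolds Lat and Lcp2, and the assembled complex activates phospholipase C gamma, Ras and NF-kB. Phosphatases, the kinase Csk and inhibitory surface receptors set the threshold of the response. Kdm6a encodes a histone demethylase, and the mark it removes is a repressive one.

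Kdm6a was at 41.5 to 44.8 CPM in the cKO samples, against 60.0 to 63.8 CPM in the WT samples, a fall of 31.9% over whole-gene counts (edgeR adjusted p = 2.89e-05). CPM is the count of a gene per fixed library total, after TMM scaling, and values by sample are given in the order cKO 2, 6, 7 and 8 and WT 1, 3, 4, 5 and 9. Library totals ran from 20587482 to 26387488 counts. The share of mitochondrial counts was 2.59% ± 0.138 in cKO (SD, n = 4) and 2.38% ± 0.0572 in WT (SD, n = 5; two-sided exact permutation p = 0.0317), and its part in the results was not tested. Of 8 markers of CD4 T cells, Cd4 was higher in cKO, Thy1 and Trbc2 were lower, and their summed level was 2602 to 2870 CPM in cKO and 3296 to 3615 CPM in WT. Thy1 alone was at 198 to 328 CPM in cKO and 943 to 1210.2 CPM in WT, a larger gap than that of any other marker in this sum. Cd3e, Trac, Cd28, Cd40lg and Icos did not pass the test. Markers of CD8 T cells summed to 15.1 to 19.1 CPM in cKO and 11.9 to 15.1 CPM in WT, and Cd8b1 was the 1 of these 2 markers that passed the test, upward. Plasma cell markers summed to 147 to 223 CPM in cKO and 266 to 334 CPM in WT, nearly all Xbp1, with Xbp1 and Prdm1 lower. Of the other plasma cell markers, Sdc1 was at 3.42 CPM in cKO and 2.31 CPM in WT and did not pass the test, and Jchain was near 0. Natural killer markers summed to 13.1 to 49.1 CPM in cKO and 7.10 to 19.8 CPM in WT, mostly Eomes. The summed ranges overlapped for gamma-delta T cells (3.89 to 8.73 CPM in cKO and 3.82 to 5.20 CPM in WT), dendritic cells (2.74 to 3.75 CPM in cKO and 2.21 to 3.60 CPM in WT) and stroma and vessel (84.5 to 106 CPM in cKO and 96.8 to 119 CPM in WT, nearly all Pecam1). The part of these lists in the results below was not tested.

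Of the 34 genes, 14 fell, 4 rose and 16 did not pass the test in cKO (edgeR quasi-likelihood test, Benjamini-Hochberg adjusted p under 0.05 over 14693 genes). The lower calls made up 41.2% of the members, against 8.82% of all genes tested, and the higher calls 11.8%, against 7.0%. In either direction 52.9% of the members were called, against 15.8% of all genes. The median log2 fold change of the members was -0.13, beside 0.0012 for all genes tested. Most changes were small: among the 14 that fell, the median loss was 17.9%, and 13 changed by less than 1.5-fold. Values of the cKO and WT samples did not overlap for 16 members, which is 47.1% of them, against 15.9% of all genes. The shares over all genes were not matched to the members in level or spread. The median coefficient of variation was 6.29% in cKO and 6.40% in WT for members, beside 7.33% and 7.81% over all genes tested. The part of level and spread in these shares was not tested, and the members were chosen with earlier results of these data known. By role, falls were counted in 2 of 4 receptor chains, 1 of 7 surface molecules, 4 of 7 kinases, 5 of 6 adaptors, 2 of 7 effectors and 0 of 3 inhibitory phosphatases and related genes. For these 3 inhibitory genes DESeq2 also called 0 lower, and 1 was lower at an unadjusted p under 0.05 in edgeR. The 4 rises were those of Cd4, Cd5, Cd6 and Ptpn6. The higher calls numbered 2 when cKO 6, cKO 8, WT 3 or WT 4 was left out.

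**Figure D1:**
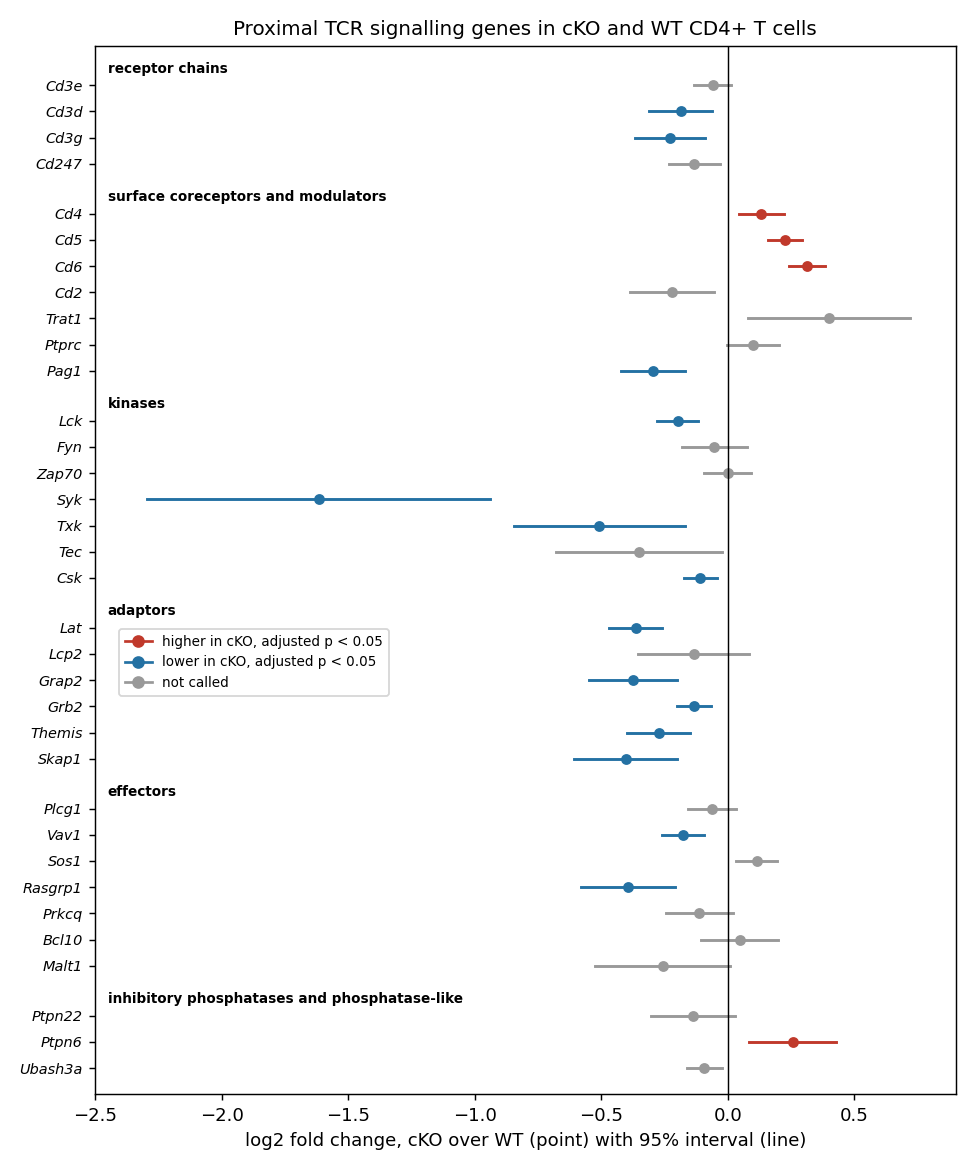
Log2 fold change of each gene, cKO over WT, with its 95% interval (horizontal lines), grouped by role down the page. Red marks the 4 genes higher in cKO, blue the 14 lower and grey the 16 not called. Syk stands apart at -1.62, and the 6 genes grouped as adaptors lie below 0; Trat1 and Pag1, adaptors at the membrane, are grouped with the surface molecules.

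Among the receptor chains, Cd3d and Cd3g fell, while Cd3e and Cd247 did not pass the test. These genes encode the delta, gamma, epsilon and zeta chains, which carry the phosphorylated motifs of the complex. Cd3g had 150.4, 142, 168 and 155 CPM in the cKO samples, against 159, 176, 192, 182 and 193 CPM in the WT samples. WT 1 lay within the cKO range, and the other WT samples lay above it. Cd3g fell by 0.23 (log2, SE 0.06, edgeR adjusted p = 0.0311). Cd3d had 163, 153, 174 and 154 CPM in the cKO samples, against 166, 178, 199, 179.6 and 191 CPM in the WT samples. Here too only WT 1 overlapped the cKO samples, and the log2 change was -0.19 (SE 0.06, edgeR adjusted p = 0.0476). Both calls were lost on leaving out cKO 2, cKO 6, cKO 8, WT 3, WT 4, WT 5 or WT 9 alone, with adjusted p up to 0.0975 for Cd3g and 0.138 for Cd3d, and Cd3d also lost it with upper-quartile scaling. Cd3e had 247, 231, 242 and 234 CPM in the cKO samples, against 249, 240.2, 256, 246 and 249.9 CPM in the WT samples. The groups overlapped, and the log2 change was -0.06, with a 95% interval from -0.13 to 0.01 (edgeR adjusted p = 0.247). Cd247 had 288, 261, 248 and 257 CPM in the cKO samples, against 301, 275, 291, 292 and 284 CPM in the WT samples. Only cKO 2 reached the WT range, and the log2 change was -0.13 (edgeR adjusted p = 0.0722). Without cKO 2 it was -0.18 and was called (adjusted p = 0.0136), and limma-voom with sample weights also called it (0.0362). Exons of Cd247 share 3007 bases with Pou2f1 on the opposite strand, and the strand setting of the counting is not known here, so its level may include reads of that gene.

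The 3 CD3 genes lie together on chromosome 9 of mm10, Cd3g on the minus strand from 44969572 to 44980431, Cd3d on the plus strand from 44981786 to 44987339 and Cd3e on the minus strand from 44998740 to 45009627. The annotated starts of Cd3g and Cd3d are 1355 bases apart and point away from each other. The nearest expressed gene on the other side of Cd3g, the ubiquitin ligase gene Ube4a, was at 117 CPM in cKO and 120.3 CPM in WT (log2 -0.04, edgeR adjusted p = 0.600). On the far side of Cd3e, its neighbour Mpzl2 rose to 0.799 CPM in cKO, against 0.437 CPM in WT (log2 0.87, edgeR adjusted p = 0.0352). The next gene, Mpzl3, fell to 30.1 CPM in cKO, against 33.99 CPM in WT (log2 -0.17, edgeR adjusted p = 0.0366). The promoter windows of these chains, from 250 bases before to 50 after the start, are shown because the 2 genes that fell and the 1 that was not called share a locus. The sequences are RefSeq's on build GRCm38.p6, written on the strand of the gene. Capitals mark the letters AGGAAG or their reverse complement CTTCCT, 1 form of the sites for ETS factors. They are called the ETS letters below, and shorter or other forms of the site were not searched.
Cd3g, chr9:44980382-44980681, minus strand: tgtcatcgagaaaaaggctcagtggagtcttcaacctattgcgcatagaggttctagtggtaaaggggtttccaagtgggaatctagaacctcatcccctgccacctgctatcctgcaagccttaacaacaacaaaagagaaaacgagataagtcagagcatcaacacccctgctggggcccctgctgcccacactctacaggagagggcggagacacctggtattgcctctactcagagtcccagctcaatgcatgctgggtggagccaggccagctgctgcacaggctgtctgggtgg
Cd3d, chr9:44981536-44981835, plus strand: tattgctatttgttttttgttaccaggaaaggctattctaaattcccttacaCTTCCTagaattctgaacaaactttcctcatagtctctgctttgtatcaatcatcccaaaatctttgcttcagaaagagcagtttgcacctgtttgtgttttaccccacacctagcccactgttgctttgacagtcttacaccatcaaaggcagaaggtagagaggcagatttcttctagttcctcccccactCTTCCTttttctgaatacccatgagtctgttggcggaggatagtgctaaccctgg
Cd3e, chr9:45009562-45009861, minus strand: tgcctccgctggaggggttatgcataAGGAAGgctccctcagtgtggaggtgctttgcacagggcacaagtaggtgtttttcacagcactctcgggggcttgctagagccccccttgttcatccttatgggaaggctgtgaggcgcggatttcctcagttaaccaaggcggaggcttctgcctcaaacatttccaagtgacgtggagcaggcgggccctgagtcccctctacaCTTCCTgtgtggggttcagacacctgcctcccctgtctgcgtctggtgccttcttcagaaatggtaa
The Cd3d and Cd3e windows each held 2 of these matches and the Cd3g window held 0. The window of Cd247, on chromosome 1 and also not called, held 2. The part of these letters in the changes was not tested. CG pairs numbered 4, 1 and 8 in the windows of Cd3g, Cd3d and Cd3e, beside a median of 7 over 32851 windows.

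Among the surface molecules, the coreceptor gene Cd4 and the scavenger receptor genes Cd5 and Cd6 rose, the adaptor gene Pag1 fell, and Cd2, Trat1 and Ptprc did not pass. Cd5 and Cd6 encode related receptors that are phosphorylated after receptor engagement and restrain signalling. Cd6 had 424, 408, 396 and 402 CPM in the cKO samples, against 334, 322, 322, 340.0 and 323 CPM in the WT samples. Every cKO sample was above every WT sample, and Cd6 was 24.2% higher (log2 0.31, SE 0.03, edgeR adjusted p = 0.000272). Cd5 had 319.8, 322, 318 and 324 CPM in the cKO samples, against 283, 264, 274, 280.4 and 271 CPM in the WT samples. Again the groups did not overlap, the cKO samples lay close together, and the level was 17.0% higher (log2 0.23, SE 0.03, edgeR adjusted p = 0.00130). Both calls held in all 17 alternative fits.

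Cd5 and Cd6 are neighbours on the minus strand of chromosome 19, from 10717116 to 10739002 and from 10789341 to 10830058, with 50339 bases between them. The flanking coding gene Vps37c, of endosomal sorting, was at 16.2 CPM in cKO and 17.2 CPM in WT (log2 -0.08, edgeR adjusted p = 0.343). On the far side Slc15a3, a peptide transporter gene, was at 5.11 CPM in cKO and 5.69 CPM in WT (log2 -0.15, edgeR adjusted p = 0.720). The next gene there, Tmem132a, was at 2.03 CPM in cKO and 1.72 CPM in WT (log2 0.23, edgeR adjusted p = 0.527). The RefSeq promoter window of Cd5 is shown with the same capitals because Cd5 rose with little spread among the cKO samples, and none was found for Cd6.
Cd5, chr19:10738925-10739224, minus strand: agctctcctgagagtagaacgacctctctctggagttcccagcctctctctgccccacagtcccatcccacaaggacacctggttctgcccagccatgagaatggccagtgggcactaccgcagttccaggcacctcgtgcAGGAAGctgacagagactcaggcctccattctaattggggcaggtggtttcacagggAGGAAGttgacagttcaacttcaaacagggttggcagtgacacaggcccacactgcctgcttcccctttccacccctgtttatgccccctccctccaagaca
It held 2 matches of the ETS letters and 3 CG pairs.

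Cd4 had 901, 954, 965 and 1007 CPM in the cKO samples, against 869.7, 824, 876, 869 and 925 CPM in the WT samples. Only WT 9 lay within the cKO range, and Cd4 was 9.62% higher in cKO (log2 0.13, SE 0.04, edgeR adjusted p = 0.0480). That call was lost when cKO 6, 7 or 8 or WT 1, 3, 4 or 5 was left out, with 1 surrogate variable, and when all genes were kept (adjusted p up to 0.137). Pag1, a membrane anchor that recruits Csk, had 115, 101, 119 and 112 CPM in the cKO samples, against 132, 128, 139.5, 137 and 151 CPM in the WT samples. All cKO samples were below all WT samples, and Pag1 fell by 0.29 (log2, SE 0.06, edgeR adjusted p = 0.00721). Cd2, an adhesion and costimulatory receptor, averaged 590.3 CPM ± 69.8 in cKO (SD, n = 4) and 688 CPM ± 44.5 in WT (SD, n = 5), with a log2 change of -0.22 (edgeR adjusted p = 0.0721). It was called without WT 1 (adjusted p = 0.0307), when all genes were kept (0.0467) and in the DESeq2 Wald test (0.0480). Without cKO 6, the lowest sample, the log2 change of Cd2 was -0.14 (adjusted p = 0.155). Trat1, an adaptor that associates with the receptor, was at 33.7 CPM ± 8.94 in cKO (SD, n = 4) and 25.5 CPM ± 2.06 in WT (SD, n = 5), with a log2 change of 0.40 (edgeR adjusted p = 0.0886). cKO 2, at 23.2 CPM, was the lowest cKO sample, and without it the log2 change was 0.54 and was called (adjusted p = 0.00749). cKO 6, at 45.0 CPM, was the highest, and without it the log2 change was 0.23 (adjusted p = 0.255). The DESeq2 Wald test called Trat1 with all samples (adjusted p = 0.0448). Ptprc, the receptor phosphatase that primes Lck, averaged 1787 CPM ± 75.8 in cKO (SD, n = 4) and 1666 CPM ± 101 in WT (SD, n = 5; log2 0.10, 95% interval -0.003 to 0.20).

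Among the kinases, Syk, Txk, Lck and Csk fell, and Zap70, Fyn and Tec did not pass. Syk is the relative of Zap70 that dominates in B cells and myeloid cells and is low in mature T cells. It had 4.13, 2.98, 5.95 and 5.59 CPM in the cKO samples, against 9.96, 13.0, 17.2, 7.93 and 22.8 CPM in the WT samples. The highest cKO sample was below the lowest WT sample, and WT values were spread widely, with WT 9 the highest. Syk was 67.4% lower in cKO (log2 -1.62, SE 0.31, edgeR adjusted p = 0.00654), the largest change among the 34 genes, and it was called in all 17 alternative fits. Summed over 8 B cell markers, the level was 3.80 to 5.31 CPM in cKO and 4.06 to 6.75 CPM in WT, a range that overlapped, although Cd79b was lower at 0.911 CPM in cKO and 1.72 CPM in WT (1 of 7 tested). Cd79a, which encodes a chain of the B cell receptor complex, reached at most 1.12 CPM in cKO and 1.37 CPM in WT. Summed over 7 macrophage and monocyte markers, the level was 14.3 to 18.5 CPM in cKO and 13.5 to 17.9 CPM in WT, nearly all of it Csf1r, with Lyz2, Cd14, Adgre1 and Fcgr1 at or near 0. Itgam, the 1 of 2 tested that fell, was at 0.373 CPM in cKO and 1.34 CPM in WT. The mast cell, neutrophil and erythroid lists each summed to at most 1.03 CPM in any sample. The part of these lists in the fall of Syk was not tested.

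The first promoter window of Syk in the RefSeq table is shown because Syk changed most.
Syk, chr13:52583187-52583486, plus strand: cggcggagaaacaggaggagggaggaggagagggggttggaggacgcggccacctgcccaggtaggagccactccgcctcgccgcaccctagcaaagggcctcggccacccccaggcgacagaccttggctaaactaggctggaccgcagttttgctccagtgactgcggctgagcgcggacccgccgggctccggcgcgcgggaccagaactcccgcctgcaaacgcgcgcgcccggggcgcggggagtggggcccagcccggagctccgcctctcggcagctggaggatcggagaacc
It held 31 CG pairs, against a median of 7 over all windows, and no match of the ETS letters, so it has no capitals. Its gene lies on the plus strand of chromosome 13 from 52583173 to 52648792. A further RefSeq start of Syk had 2 CG pairs in its window, and counts over whole genes do not say which start was used.

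Zap70, the kinase that binds the CD3 and zeta motifs, had 226, 244, 227 and 242 CPM in the cKO samples, against 253, 236, 225, 226 and 235 CPM in the WT samples. The cKO values all lay within the WT range, and the log2 change was -0.0007, with a 95% interval from -0.10 to 0.09 (edgeR adjusted p = 0.993) and a sign that turned with the setting. Lck, the Src-family kinase that starts the cascade, had 526, 507, 531 and 564 CPM in the cKO samples, against 592, 605, 631, 603 and 620.3 CPM in the WT samples. Every cKO sample was below every WT sample, and Lck was 12.8% lower (log2 -0.20, SE 0.04, edgeR adjusted p = 0.00547). Fyn, the other Src-family kinase of T cells, averaged 349.9 CPM ± 23.7 in cKO (SD, n = 4) and 363 CPM ± 24.7 in WT (SD, n = 5; log2 -0.05, 95% interval -0.18 to 0.07, edgeR adjusted p = 0.576).

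Txk and Tec, Tec-family kinases that act on phospholipase C gamma, are neighbours on the minus strand of chromosome 5, from 72695978 to 72752777 and from 72755716 to 72868483. Txk had 33.1, 21.6, 32.1 and 29.8 CPM in the cKO samples, against 33.6, 33.2, 51.2, 40.6 and 48.5 CPM in the WT samples. The highest cKO value, in cKO 2, was just below the lowest WT value, in WT 3, and WT 4 and WT 9 were well above the rest. Txk was 29.7% lower (log2 -0.51, SE 0.15, edgeR adjusted p = 0.0454), a call that was lost on leaving out cKO 6, 7 or 8 or WT 4, 5 or 9, in both limma-voom fits and with upper-quartile scaling (adjusted p up to 0.120). Tec averaged 9.52 CPM ± 1.76 in cKO (SD, n = 4) and 12.2 CPM ± 2.11 in WT (SD, n = 5; log2 -0.35, edgeR adjusted p = 0.133), and it was called without cKO 2 (adjusted p = 0.0467) or WT 9 (0.0404). Beside Txk, Nipal1 was at 7.29 CPM in cKO and 11.6 CPM in WT (log2 -0.68, edgeR adjusted p = 0.0518), and the next gene, Cnga1, fell to 0.330 CPM in cKO, against 0.859 CPM in WT (log2 -1.36, edgeR adjusted p = 0.0197). Beside Tec, Slain2 was at 113 CPM in cKO and 109 CPM in WT (log2 0.06, edgeR adjusted p = 0.476). The next gene there, Gm10135, was at 4.83 CPM in cKO and 5.30 CPM in WT (log2 -0.13, edgeR adjusted p = 0.540). Csk, which phosphorylates the inhibitory tyrosine of Lck, had 432, 423, 426 and 436 CPM in the cKO samples, against 451, 474, 455, 459 and 476 CPM in the WT samples. The groups did not overlap although the difference was only 7.27% (log2 -0.11, SE 0.03, edgeR adjusted p = 0.0315). The call of Csk was lost on leaving out any of the 4 cKO samples, WT 3 or WT 9, when all genes were kept, and with upper-quartile scaling (adjusted p up to 0.0904).

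**Figure D2:**
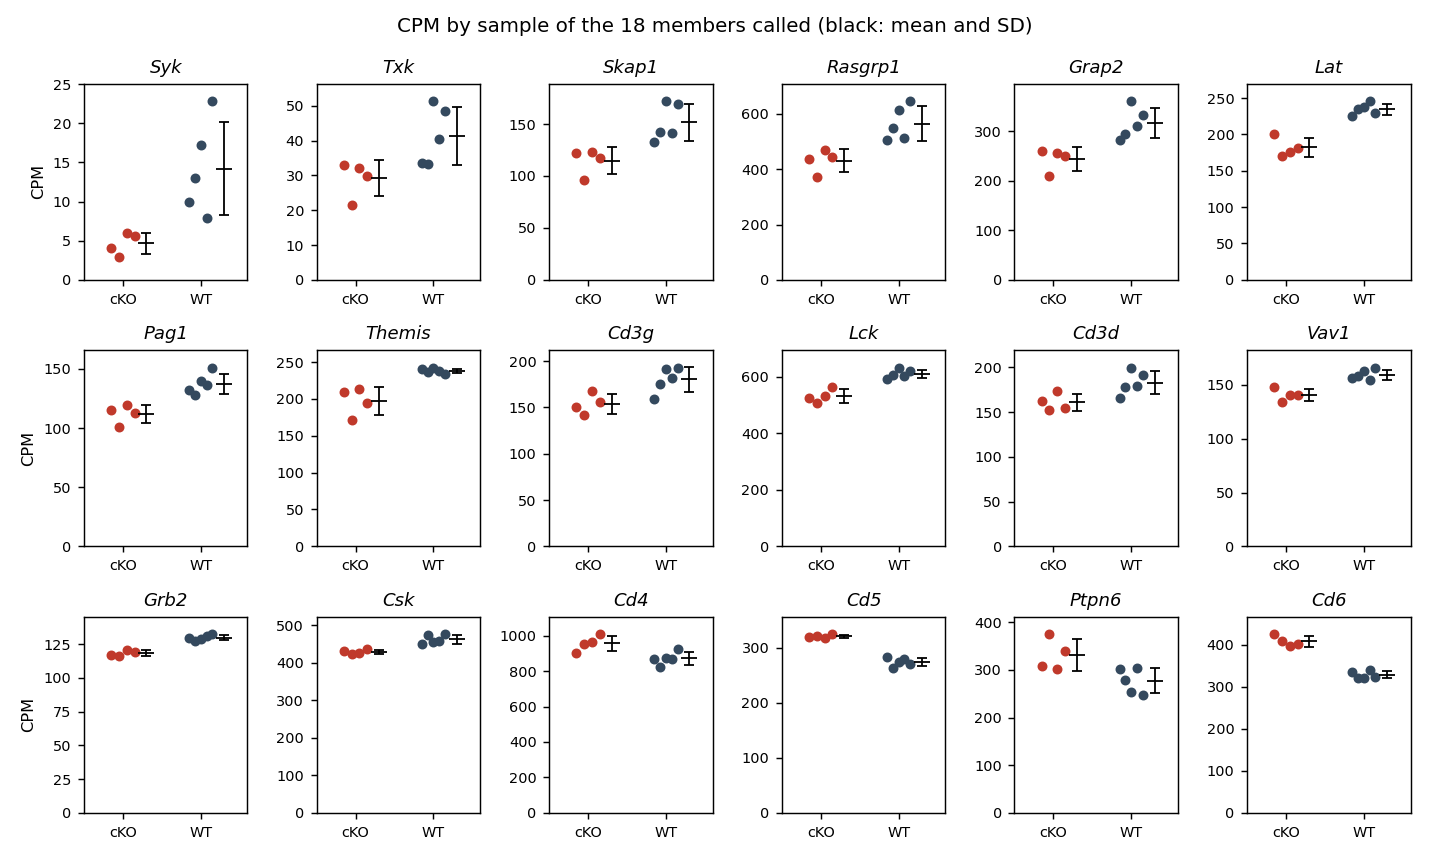
CPM of the 18 called genes in each sample, with cKO (red, n = 4) left of WT (blue, n = 5) and the group mean and SD in black; each panel starts at 0 and has its own scale. The groups separate for 14 of the 18 genes, and overlap for Cd3d, Cd3g, Cd4 and Ptpn6.

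The 6 genes grouped as adaptors had the highest share of falls among the roles; Trat1 and Pag1, which are also adaptors, were counted with the surface molecules. Lat, the membrane scaffold phosphorylated by Zap70, had 201, 171, 176 and 182 CPM in the cKO samples, against 225, 235, 238, 245 and 229.9 CPM in the WT samples. The cKO and WT samples were clearly separate, and Lat was 22.3% lower (log2 -0.36, SE 0.05, edgeR adjusted p = 0.00113). Grap2, which bridges Lat and Lcp2, had 261, 209.7, 257 and 249.6 CPM in the cKO samples, against 282, 295, 360.1, 311 and 334 CPM in the WT samples. WT 4 was the highest and cKO 6 the lowest, with no overlap between groups (log2 -0.37, SE 0.08, edgeR adjusted p = 0.0104). Skap1, an adaptor of integrin activation, had 122, 96.0, 124 and 117 CPM in the cKO samples, against 133, 143, 172, 142 and 169 CPM in the WT samples. It fell by 0.40 (log2, SE 0.09, edgeR adjusted p = 0.0146), and again cKO 6 was the lowest sample. Exons of Skap1 overlap 2010300F17Rik, a noncoding gene on the opposite strand, by 186 bases. The counts of 2010300F17Rik over all samples came to 4170, beside 28490 for Skap1. Themis, a T lineage protein that controls signalling during thymic selection, had 209, 171, 213 and 195 CPM in the cKO samples, against 239.9, 237, 242, 238 and 234 CPM in the WT samples. The cKO samples were spread more widely than the WT samples and lay below all of them (log2 -0.27, SE 0.06, edgeR adjusted p = 0.00918). Exons of Themis overlap a pseudogene on the opposite strand, 4930519F09Rik, by 153 bases, with 3726 counts over all samples beside 46228 for Themis. Grb2, which brings Sos1 to Lat, had 117, 116, 121 and 119 CPM in the cKO samples, against 129, 127, 129, 131 and 132 CPM in the WT samples. This small difference of 8.81% exceeded the narrow spread within each group (log2 -0.13, SE 0.03, edgeR adjusted p = 0.0145). These 5 calls held in all 17 alternative fits. Lcp2, the scaffold that joins Lat through Grap2, averaged 331 CPM ± 20.2 in cKO (SD, n = 4) and 363 CPM ± 60.1 in WT (SD, n = 5), with WT 1 at 459.6 CPM and the next WT sample at 384 CPM (log2 -0.14, 95% interval -0.35 to 0.08, edgeR adjusted p = 0.390). Without WT 1 the log2 change of Lcp2 was -0.04 (adjusted p = 0.730).

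The RefSeq promoter window of Lat is shown because Lat had the smallest adjusted p among the falls. Capitals mark the ETS letters as above and ACCACA, the reverse complement of the RUNX core TGTGGT.
Lat, chr7:126369519-126369818, minus strand: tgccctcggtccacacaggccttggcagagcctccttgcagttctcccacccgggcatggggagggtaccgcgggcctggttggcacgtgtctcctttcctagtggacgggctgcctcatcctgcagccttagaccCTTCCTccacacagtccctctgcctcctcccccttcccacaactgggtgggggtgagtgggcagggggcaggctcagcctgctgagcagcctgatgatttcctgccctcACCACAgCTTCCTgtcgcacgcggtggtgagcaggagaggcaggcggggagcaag
The window held 2 ETS matches, 1 RUNX match and 10 CG pairs. Lat lies on the minus strand of chromosome 7 from 126363824 to 126369570. Windows were found for 28 of the 34 genes, and none was found for Cd2, Cd4, Cd6, Malt1, Pag1 and Skap1. The ETS letters, searched on both strands, were in 60.5% of the 38 windows of these genes, beside 35.4% of all 32851 windows of the same length. The RUNX core was in 18.4%, beside 16.8%. Some genes had more than 1 window, all windows were not matched to those of the members, and the difference was not tested. Of the 12 genes that fell and had a window, 7 held the ETS letters. Of the 14 with a window that were not called, 10 held them, and of the 2 that rose, 2 held them.

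Among the effectors, Rasgrp1 and Vav1 fell, and Plcg1, Sos1, Prkcq, Bcl10 and Malt1 did not pass. Rasgrp1, the diacylglycerol-dependent activator of Ras, had 437, 371, 468 and 444 CPM in the cKO samples, against 504, 548, 615, 513 and 645 CPM in the WT samples. It was 23.9% lower without overlap (log2 -0.39, SE 0.08, edgeR adjusted p = 0.0107). Vav1, the exchange factor for Rac and a regulator of actin, had 148, 134, 141 and 141 CPM in the cKO samples, against 156, 158, 163, 154 and 166 CPM in the WT samples. It was 11.6% lower, also without overlap (log2 -0.18, SE 0.04, edgeR adjusted p = 0.0104), and both calls held in all 17 alternative fits. Sos1, the exchange factor that Grb2 brings to Ras, had 54.3, 55.0, 54.8 and 54.7 CPM in the cKO samples, against 52.1, 51.4, 51.9, 49.1 and 48.3 CPM in the WT samples. The cKO samples differed by less than 1 CPM and all exceeded the WT samples, yet the adjusted p was 0.0572 in edgeR (log2 0.11, SE 0.04). It was called without WT 1 (adjusted p = 0.0435), with upper-quartile scaling (0.0335) and in limma-voom with sample weights (0.0440).

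Plcg1, the phospholipase that opens the calcium and Ras branches, averaged 234 CPM ± 12.6 in cKO (SD, n = 4) and 244 CPM ± 9.60 in WT (SD, n = 5; log2 -0.06, 95% interval -0.16 to 0.03). Exons of Plcg1 overlap Zhx3 and an antisense gene on the other strand, by 379 and 248 bases. Prkcq, the kinase that leads to NF-kB, averaged 241 CPM ± 13.0 in cKO (SD, n = 4) and 260.4 CPM ± 21.5 in WT (SD, n = 5; log2 -0.11, 95% interval -0.24 to 0.02). Downstream of it, Bcl10 averaged 63.9 CPM ± 2.91 in cKO (SD, n = 4) and 61.8 CPM ± 6.52 in WT (SD, n = 5; log2 0.05, 95% interval -0.10 to 0.20). Malt1, the protease partner of Bcl10, averaged 186 CPM ± 24.3 in cKO (SD, n = 4) and 222 CPM ± 39.1 in WT (SD, n = 5; log2 -0.26, 95% interval -0.52 to 0.0085), with WT 1 the highest at 288 CPM and cKO 2 the lowest at 149.8 CPM. The log2 change of Malt1 was -0.15 without WT 1 (adjusted p = 0.271) and -0.17 without cKO 2 (0.360).

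Of the inhibitory phosphatases and related genes, Ptpn6 rose, and Ptpn22 and Ubash3a did not pass. Ptpn6 encodes a tyrosine phosphatase that binds inhibitory receptors. It had 308, 374, 302 and 341 CPM in the cKO samples, against 303, 279.7, 255, 303 and 247 CPM in the WT samples. The cKO samples 2 and 7 were close to WT 1 and WT 5, while cKO 6 was the highest sample (log2 0.26, SE 0.08, edgeR adjusted p = 0.0462). The call was lost when cKO 6, cKO 8, WT 3, WT 4 or WT 9 was left out (adjusted p up to 0.140). Exons of Ptpn6 overlap an antisense gene, Gm20531, by 195 bases, whose counts over all samples came to 7109 beside 63216 for Ptpn6. Ptpn22, a phosphatase of Lck and Zap70, averaged 68.6 CPM ± 7.96 in cKO (SD, n = 4) and 75.4 CPM ± 4.91 in WT (SD, n = 5; log2 -0.14, 95% interval -0.30 to 0.03). Ubash3a, a negative regulator of receptor signalling, had 129, 137, 133 and 136 CPM in the cKO samples, against 145, 144, 142, 144 and 139 CPM in the WT samples. These groups did not overlap, and the adjusted p was 0.0688 in edgeR (log2 -0.09, SE 0.03) and 0.0468 in limma-voom with sample weights.

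The samples of a genotype were not alike in these genes. cKO 6 was the lowest cKO sample for all 14 genes that fell, and for 58.8% of the 1296 genes that fell in the whole table. WT 4 and WT 9 were the highest WT samples for 10 of the 14, and for 48.6% of the 1296. WT 1 was the lowest WT sample for 8 of the 14, and for 49.8% of the 1296. The median log2 level of the 14 genes relative to the WT mean was -0.24, -0.45, -0.20 and -0.29 in cKO 2, 6, 7 and 8, against -0.10, -0.03, 0.07, -0.02 and 0.08 in WT 1, 3, 4, 5 and 9. Over all 34 genes the median was between -0.17 and -0.09 in cKO and between -0.02 and 0.02 in WT. The median coefficient of variation of a member was 6.29% in cKO and 6.40% in WT, beside 7.33% and 7.81% over all genes tested. It exceeded 15% in at least 1 genotype for 6 members, Syk, Txk, Tec, Trat1, Lcp2 and Malt1.

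Per length, the level of the 34 genes covered a wide range. Levels are given as CPM per kb of exonic length in GENCODE M21, which counts the exons of every annotated transcript, so that genes with long rare transcripts appear lower. Cd2 was the highest at 339 CPM per kb in cKO and 395 in WT, followed by Cd4 at 237 in cKO and 216 in WT and Lck at 182 in cKO and 208 in WT. The neighbours Cd4 and Lck in this order were within their spread of each other in WT (SD 8.82 and 5.34, n = 5) and apart in cKO (SD 10.8 and 7.98, n = 4). Of the complex itself, Cd3d was at 88.6 CPM per kb in cKO and 101 in WT, Cd3e at 58.4 in cKO and 60.9 in WT, Cd247 at 49.4 in cKO and 54.2 in WT, and Cd3g at 47.1 in cKO and 55.1 in WT. The lowest were Txk at 2.66 CPM per kb in cKO and 3.78 in WT, Tec at 2.54 in cKO and 3.26 in WT, and Syk at 0.498 in cKO and 1.51 in WT. The order was nearly the same in both genotypes, and the genes whose rank moved by more than 2 places were Rasgrp1, Ptpn6, Lat, Zap70 and Cd6. Rasgrp1 stood at rank 10 in cKO and 5 in WT, and Cd6 at rank 15 in cKO and 20 in WT.

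**Figure D3:**
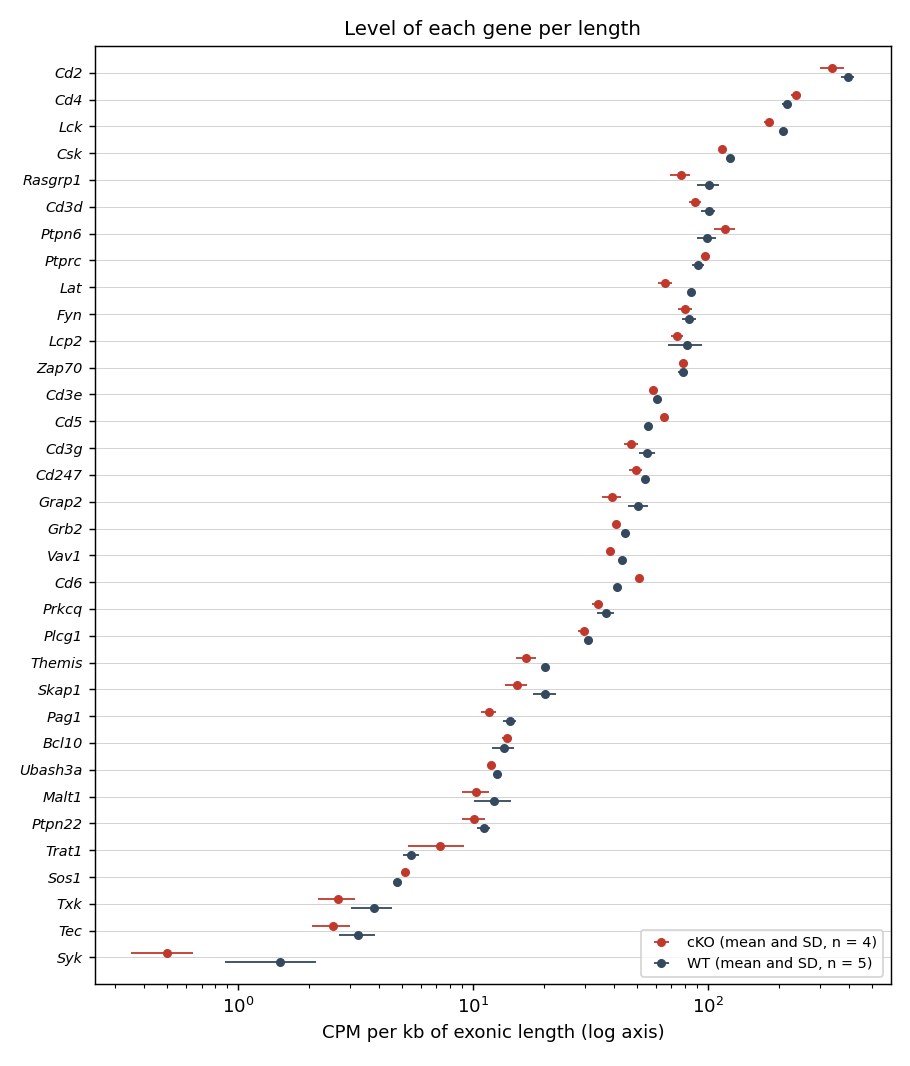
Mean CPM per kb of exonic length of each gene on a log axis, with SD bars, cKO in red above WT in blue, ordered by the WT level. Cd2 is at the top, at 339 in cKO and 395 in WT, and Syk at the bottom, at 0.498 in cKO and 1.51 in WT.

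Ratios between related members are given by sample or by group, without a test. The log2 ratio of Syk to Zap70 was -5.77, -6.36, -5.26 and -5.43 in cKO 2, 6, 7 and 8, against -4.67, -4.18, -3.71, -4.83 and -3.36 in WT 1, 3, 4, 5 and 9. The groups did not overlap, and by the mean log2 ratio Zap70 had 52.1 times the CPM of Syk in cKO and 17.8 times in WT. Cd5 to Cd6 was the other ratio without overlap, at -0.34 ± 0.05 in cKO (SD, n = 4) and -0.26 ± 0.02 in WT (SD, n = 5). This difference was small, and the 95% intervals of the 2 log2 changes overlapped, at 0.16 to 0.29 for Cd5 and 0.24 to 0.39 for Cd6. The ratios of Fyn to Lck, Tec to Txk, Grap2 to Grb2 and Cd247 to Cd3e overlapped between genotypes. Fyn to Lck was at -0.61 ± 0.09 in cKO and -0.75 ± 0.08 in WT, and Grap2 to Grb2 at 1.04 ± 0.13 in cKO and 1.28 ± 0.14 in WT (SD, n = 4 and n = 5).

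**Figure D4:**
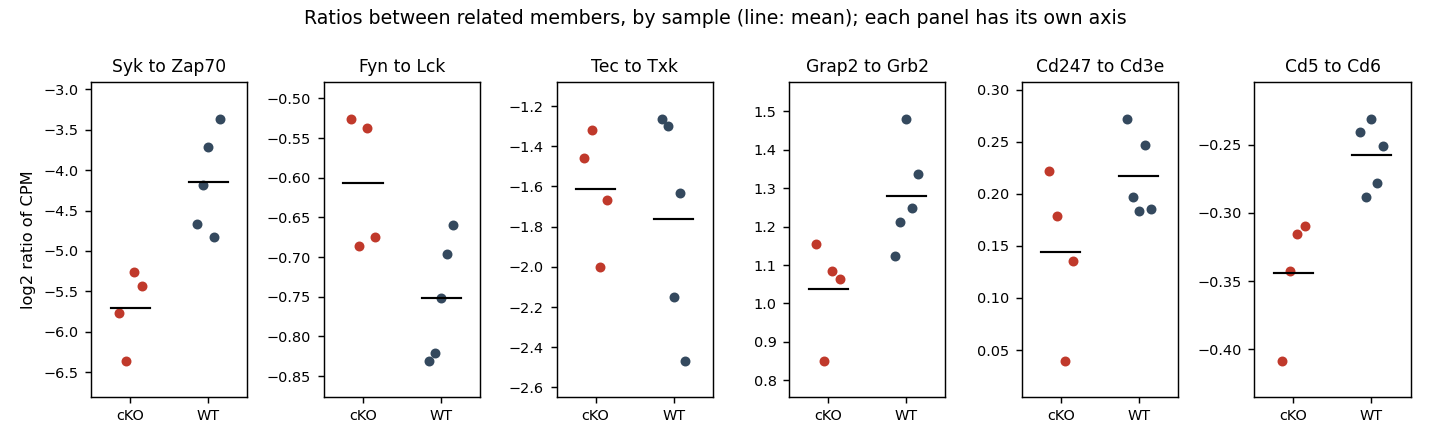
Log2 ratio of the CPM of related genes in each sample, cKO (red, n = 4) left of WT (blue, n = 5), with the group mean as a line; each panel has its own axis. Syk to Zap70 and Cd5 to Cd6 separate the genotypes, and the other 4 ratios overlap.

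A list of 40 other genes of the pathway, none of them a member, held more falls than rises. The list was chosen with earlier results of these data known, so it gives no independent support to the falls among the members. In cKO, 13 fell, 1 rose and 26 did not pass (edgeR adjusted p under 0.05), which is 32.5% lower and 2.50% higher, beside 8.82% and 7.0% of all genes tested, and the median log2 change was -0.12. The smallest adjusted p among the falls were those of Ubash3b, a relative of Ubash3a, Ptpn7, a phosphatase that acts on MAP kinases, and Rasal3, a Ras GTPase-activating protein. Ubash3b was at 23.9 CPM in cKO and 33.9 CPM in WT (log2 -0.50, SE 0.07, edgeR adjusted p = 0.00113). Ptpn7 was at 279 CPM in cKO and 348 CPM in WT (log2 -0.32, SE 0.04, edgeR adjusted p = 0.00129), and Rasal3 at 301 CPM in cKO and 391.97 CPM in WT (log2 -0.38, SE 0.05, edgeR adjusted p = 0.00144). The calcium-release channel gene Itpr1, the adaptor gene Lax1 and the actin regulator gene Was were lower as well, at log2 -0.33, -0.49 and -0.26. Sos2, the relative of Sos1, was the 1 gene that rose, at 44.9 CPM in cKO and 34.9 CPM in WT (log2 0.36, SE 0.06, edgeR adjusted p = 0.00375). Without cKO 8 or without WT 5, and with upper-quartile scaling, 2 genes rose.

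The constant regions of the receptor itself were part of that list. Trbc1, a beta constant region, was at 56.3 CPM in cKO and 75.6 CPM in WT (log2 -0.42, SE 0.07, edgeR adjusted p = 0.00230), and Trbc2 at 107 CPM in cKO and 128 CPM in WT (log2 -0.26, edgeR adjusted p = 0.0323). Both are near-identical copies between which the counting could have split reads, so their separate values are uncertain. The alpha constant region Trac was at 200.4 CPM in cKO and 214 CPM in WT (log2 -0.10, edgeR adjusted p = 0.230).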

How the data were processed

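RNA-seq read counts per gene were deposited by the authors as 1 table of 39017 Ensembl gene IDs and 9 samples, not normalized. Bases were called with bcl2fastq 2.17 and the genome build was mm10, per the submitters' processing notes; the aligner, the counter and its strand setting were not given in the labels or notes. Symbols, positions and exonic lengths came from GENCODE M21, which held 37693 of the IDs, and promoter sequences from RefSeq on GRCm38.p6. Of the IDs, 13708 had 0 counts in all samples. The cKO (n = 4) and WT (n = 5) samples were compared with edgeR 4.0.16 (filterByExpr, TMM, quasi-likelihood test, Benjamini-Hochberg adjustment over the 14693 genes kept, threshold 0.05). The biological coefficient of variation was 8.04% and TMM factors ran from 0.985 to 1.01. Replicates differed beyond sampling noise (chi-square per gene 3.52 to 21.9), so none were merged.

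Alternatives used DESeq2 1.42.0 size factors and Wald test, limma 3.58.1 voom fits, 1 surrogate variable from sva 3.50.0, upper-quartile scaling, other count filters, each sample left out and a threshold of 0.01. Data were simulated for cKO against WT over 14693 genes, with 200 of them changed. There edgeR recovered 48% of 50 genes changed by 1.2-fold and 86% of 50 changed by 1.5-fold, with 11 false calls among 172. In the measured data 2324 genes were called. The changed genes were not matched to the members in level or spread, so these shares may not hold for the members. Members, the list of 40 other pathway genes and the marker lists were chosen with earlier results of these data known. All 34 members are named. Called members, the CD3 and zeta chains, Cd4, Zap70 and Syk are given in every sample. Of the other list, the 8 called genes with the smallest adjusted p are given, and Trbc2 and Trac were added beside Trbc1, outside this rule. Sos1 and Ubash3a were also given in every sample because their groups did not overlap, which was decided after their values were seen. Flanking genes at the 3 loci with neighbouring members were taken by position, leaving out genes below the count filter. Motifs were searched as exact letters on both strands.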

Additional observations from a re-analysis of the deposited data

Results flagged for a closer look

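Malt1 in cKO 2 stood apart from the other cKO samples, at 149.8 CPM beside 195 to 200.1 CPM in cKO 6, 7 and 8. The gap divided by the range of the group was 0.904, above Dixon's 95% critical value for 4 samples. Of the 70 groups examined, 1 stood out in this way, and chance alone gives about 1 in 20. Without cKO 2 the log2 change of Malt1 was -0.17 (edgeR adjusted p = 0.360), beside -0.26 with all samples (0.174).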

How the results depend on the processing

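Of the 18 called members, 12 kept the call in all 17 alternative fits and 6 (Cd3d, Cd3g, Cd4, Txk, Csk and Ptpn6) lost it in at least 1, and 6 members that were not called were called in at least 1. The only member whose sign turned was Zap70, whose log2 change was 0.0021 with DESeq2 size factors, 0.018 with upper-quartile scaling, 0.0014 with a filter of 1 CPM in 4 samples, 0.00076 in the DESeq2 Wald test, 0.0096 in limma-voom with sample weights, 0.0019 with 1 surrogate variable and -0.020 to 0.028 with 1 sample left out. At an adjusted p under 0.01, 787 genes were called, of the members 2 rose and 5 fell, and of the other pathway genes 8 fell. With 1 sample left out, 1263 to 2933 genes were called, 2 to 5 members rose and 10 to 15 fell, and 1 to 2 other pathway genes rose and 9 to 15 fell; the counts of genes without cKO 6, cKO 8 and WT 4 were 1263, 1504 and 1528. Upper-quartile scaling gave 2 other pathway genes that rose, and called 8.61% of genes higher and 7.27% lower, beside 7.0% and 8.82% with TMM. The median log2 change of the members stayed between -0.15 and -0.12 and that of Kdm6a between -0.58 and -0.54 in the alternatives. No paired analysis was possible because the labels give no pairs of samples and no animal identifiers. In simulated data with 200 changed genes, edgeR recovered 48% of the 50 genes changed by 1.2-fold, a share not matched to the members in level or spread.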
